A study of Mus musculus with 6 samples.

Results

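The genes described here are 9 known markers of the quiescent hepatic stellate cell and of its vitamin A store: Lrat, Colec10, Colec11, Hgf, Reln, Ngfr, Hand2, Lhx2 and Cygb. They were chosen by name, from what is known of the cell type, but with earlier results of these data known. Each symbol matched 1 of the 55416 Ensembl gene IDs of the count table. All 9 passed the filter on low counts and were among the 17083 genes tested. RNA was sequenced from whole liver of male mice in 6 libraries. The 3 KO libraries came from mice with floxed Ephb2 and the Pdgfrb-CreERT2 driver, a tamoxifen-inducible recombinase made wherever the Pdgfrb promoter is active, which includes stellate cells and pericytes. The 3 WT libraries came from mice with floxed Ephb2 and no Cre. Animals of both genotypes were 8 to 10 weeks old at tamoxifen, which was injected on 5 days, and both then ate a choline-deficient, amino-acid-defined diet for 8 weeks. That diet gave 45% of its calories as fat and held 0.1% methionine and 1% cholesterol. It is used to make mice develop a fatty and scarred liver, and no animals on another diet were part of the comparison. No group had Cre without floxed Ephb2, so the driver and the deletion cannot be told apart. The labels number the samples and do not say how the replicates relate, so each p-value reflects how far these samples scatter, and that scatter may be technical.

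Stellate cells lie between the sinusoidal endothelium and the hepatocytes and hold most of the body's vitamin A as retinyl esters in lipid droplets. When the liver is injured they lose these droplets, take on features of a myofibroblast and become the main source of collagen. The 9 genes mark the resting, fat-storing state, although some stay on in activated cells. Lrat makes the retinyl esters. Colec10, Colec11, Hgf and Reln encode secreted proteins, Ngfr a receptor, Hand2 and Lhx2 transcription factors and Cygb a globin.

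Because 2 of the genes encode transcription factors, the promoters of the set were searched for the letters that such factors bind. RefSeq windows were given for 7 of the 9 genes, 9 windows in all, and the 250 bases before each start were read. The motifs were CANNTG, the E-box of basic helix-loop-helix factors such as Hand2, TAATTA, a core of LIM homeodomain factors such as Lhx2, and AGGTCA, the core of the sites of retinoic acid receptors, each on both strands. The motif CANNTG was found in 6 of the 9 windows, a share near the 66.2% of all 32851 promoter windows of the same length that hold it. The letters TAATTA occurred in 1 of the 9, that of Hand2, and in 4.84% of all windows. AGGTCA occurred in 0 of the 9 and in 14.0% of all windows. Lrat is shown because its product makes the vitamin A store, and Hand2 because it alone held the homeodomain letters. Both stretches are from GRCm38.p6, 5′ to 3′, and end at the base before the start. They cover chr3:82903975-82904224 on the minus strand and chr8:57320733-57320982 on the plus strand. Capitals mark the single E-box match in Lrat and, in Hand2, a pair of E-box matches followed by TAATTA.
Lrat: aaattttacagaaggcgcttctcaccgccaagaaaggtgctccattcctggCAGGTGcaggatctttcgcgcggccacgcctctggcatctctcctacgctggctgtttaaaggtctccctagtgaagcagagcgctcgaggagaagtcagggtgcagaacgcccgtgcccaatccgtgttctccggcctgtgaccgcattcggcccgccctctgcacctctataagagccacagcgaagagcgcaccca
Hand2: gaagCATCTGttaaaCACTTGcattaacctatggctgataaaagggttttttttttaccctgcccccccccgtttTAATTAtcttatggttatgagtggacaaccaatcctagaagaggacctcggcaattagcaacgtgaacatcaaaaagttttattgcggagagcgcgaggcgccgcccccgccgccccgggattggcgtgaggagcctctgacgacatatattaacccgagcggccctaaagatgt
In Lrat the E-box letters lie 199 to 194 bases before the start, and in Hand2 they lie at 246 to 241 and at 235 to 230, with TAATTA at 175 to 170. A match of letters is a description and no evidence of binding.

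The libraries held 21160690 to 26339251 counts in KO and 21411113 to 23100862 in WT liver, and levels below are CPM, counts scaled to library size with TMM factors. Alb, the defining gene of hepatocytes, averaged 38734 CPM in KO and 40406 CPM in WT liver. Ephb2, the deleted gene, stood at 6.01, 8.87 and 6.95 CPM in KO replicates 1 to 3, against 9.46, 8.28 and 12.4 CPM in WT replicates 1 to 3. The genotypes overlapped, with a log2 fold change of -0.46 (95% interval -0.94 to 0.01, edgeR adjusted p = 0.850). Other liver cells keep the gene and the count is of the whole gene, so this value checks the labels weakly. Across the whole table edgeR's quasi-likelihood test with Benjamini-Hochberg adjustment called 0 of 17083 genes, with 886 at an unadjusted p under 0.05, limma-voom called 0 and DESeq2 called 8 (0.0567% of those it gave an adjusted p), none of them among the 9. Libraries also differed in acute phase RNA, with WT replicates 1 and 3 and KO replicate 2 high.

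Of the 9 stellate genes, 7 had a lower and 2 a higher estimate in KO than in WT liver, and none passed the test. Their median log2 fold change was -0.25, beside -0.0048 over all genes tested, of which 51.0% had a negative estimate. At an unadjusted p under 0.05 stood Colec10 and Lrat, both lower in KO liver, and Cygb, higher in KO liver. That is 3 of 9, where 5.19% of all genes tested reached this level (2.10% lower and 3.08% higher). Because the genes and lists were chosen with earlier results of these data known, such shares describe them and are no test. The levels of the genotypes did not overlap for Colec10 and Lhx2, lower in KO, and Cygb, higher in KO. Over all genes tested the genotypes did not overlap in 11.1%, with 4.90% lower and 6.21% higher in KO liver. In whole liver RNA, fewer stellate cells and less RNA per stellate cell cannot be told apart.

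**Figure D1:**
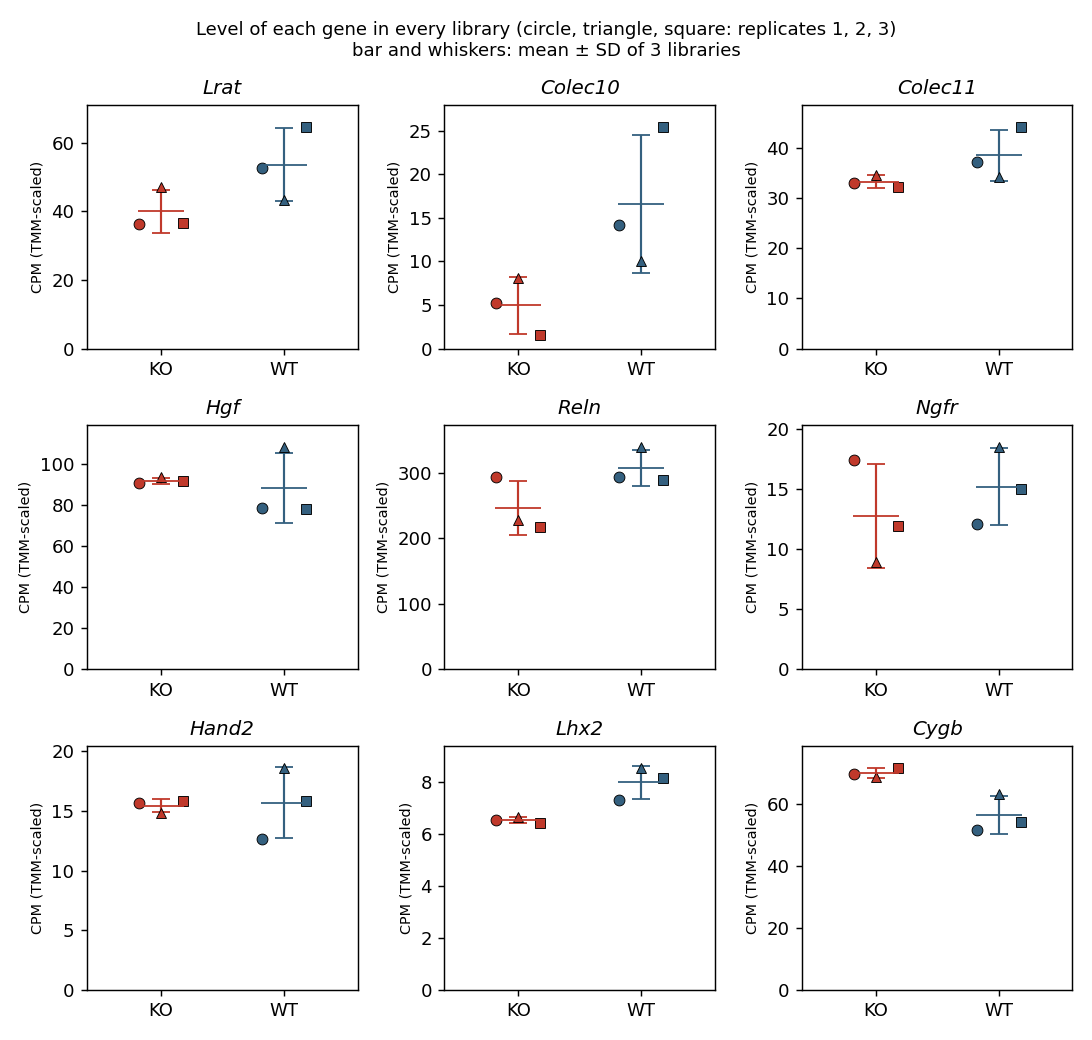
Level of each of the 9 genes in every library, in CPM on an axis from 0, with KO on the left and WT on the right; circles, triangles and squares are replicates 1, 2 and 3, and the bar with whiskers is the mean ± SD of 3 libraries. The genotypes stand apart for Colec10, Lhx2 and Cygb and overlap for the other 6 genes.

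Lrat (ENSMUSG00000028003) encodes lecithin retinol acyltransferase, which esterifies retinol for storage and is a marker of stellate cells in mouse liver. It lies on chromosome 3 of GRCm38 at 82892579 to 82903973 on the minus strand. Its level was 36.4, 47.2 and 36.5 CPM in KO replicates 1 to 3, against 52.6, 43.5 and 64.7 CPM in WT replicates 1 to 3. KO replicate 2 stood above WT replicate 2, so the genotypes overlapped, and the highest value was that of WT replicate 3. The mean was 40.0 ± 6.18 CPM in KO and 53.6 ± 10.6 CPM in WT liver (SD, n = 3 each). The log2 fold change was -0.42 (SE 0.16, 95% interval -0.80 to -0.04), which gave an edgeR unadjusted p of 0.0336 and an adjusted p of 0.850. Without WT replicate 3 it was -0.26 and without KO replicate 2 it was -0.56, and the unadjusted p stayed under 0.05 only without KO replicate 2 or WT replicate 2.

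The 3 libraries with the highest Lrat, WT replicates 3 and 1 and KO replicate 2, were those with the most acute phase RNA. The 15 acute phase genes, all tested, with 3 higher and 12 lower in KO, summed to 15447 to 39011 CPM in KO and 15317 to 36715 CPM in WT liver, and none was at 0. Saa1, serum amyloid A, stood at 57.3, 1857 and 80.4 CPM in KO and at 423, 51.6 and 595 CPM in WT replicates 1 to 3. With the mean acute phase level as a covariate the log2 fold change of Lrat was -0.34 (edgeR unadjusted p = 0.00765, adjusted p = 0.806). In that fit 1032 of 17083 genes had an unadjusted p under 0.05, against 886 without the covariate. The part of the acute phase in the level of Lrat was not tested. WT replicates 3 and 1 and KO replicate 2 were the 3 highest libraries in 10.6% of all genes tested. Of the 9 stellate genes, Colec11 shared these 3 libraries, and its values follow below.

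Lrat was set against genes that act on either side of it. Of 32 genes of retinoid uptake, storage, oxidation and signalling, 28 were tested, and none passed the test, with 12 higher and 16 lower in KO liver and a median of -0.12. An unadjusted p under 0.05 was reached by 4 of them, 2 in each direction, where 5.19% of all genes tested reached it. Aldh1a2, which makes retinoic acid from retinal, had 8.23, 6.18 and 9.27 CPM in KO, against 3.12, 5.59 and 3.63 CPM in WT replicates 1 to 3. All KO libraries exceeded all WT libraries, with a log2 fold change of 0.93 (SE 0.25, adjusted p = 0.850 by edgeR). Cyp26c1, an enzyme that breaks retinoic acid down, was lower in each KO library, at 0.447 ± 0.108 CPM in KO and 0.892 ± 0.0437 CPM in WT liver (SD, n = 3 each). It rested on 8 to 22 counts a library. Dgat1, which esterifies diglycerides and can also esterify retinol, stood at 18.4, 16.8 and 16.8 CPM in KO and 21.4, 21.003 and 18.99 CPM in WT replicates 1 to 3, a log2 fold change of -0.24 (SE 0.10). Pnpla3, a lipase that releases retinol from its esters in human stellate cells, had 8 to 29 counts a library and a log2 fold change of 0.99 (SE 0.37).

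Other retinol carriers, receptors and enzymes of the same list did not pass the test either. Rbp4, the plasma carrier that hepatocytes secrete, averaged 1242 ± 333 CPM in KO and 1344 ± 170 CPM in WT liver (SD, n = 3 each). Stra6l, the liver's receptor for it, gave a log2 fold change of -0.12 (SE 0.16). Rarb, a retinoic acid receptor whose own gene responds to retinoic acid, gave 0.26 (SE 0.16). The retinoic acid hydroxylases Cyp26a1 and Cyp26b1 were at 0.27 (SE 0.43) and -0.35 (SE 0.31). Crabp2 had no count in any library.

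Colec10 and Colec11 encode collectin liver 1 and collectin kidney 1, soluble lectins that join into mixed complexes and start the lectin pathway of complement. Colec10 (ENSMUSG00000038591) lies on chromosome 15 of GRCm38 (54410774 to 54466358, plus strand) and Colec11 (ENSMUSG00000036655) on chromosome 12 (28594173 to 28623377, minus strand). Colec10 stood at 5.23, 8.11 and 1.56 CPM in KO, against 14.2, 10.1 and 25.4 CPM in WT replicates 1 to 3. Every KO library was below every WT library, and the libraries of each genotype were spread widely. The mean was 4.97 ± 3.29 CPM in KO and 16.6 ± 7.95 CPM in WT liver (SD, n = 3 each). The log2 fold change of -1.73 (SE 0.54, 95% interval -2.96 to -0.49) was the farthest from 0 among the 9 genes, with an edgeR unadjusted p of 0.0122 and an adjusted p of 0.850. It ranked 181st of 17083 by p, next to Cygb at 182.

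The values of Colec10 rest on few reads in KO replicate 3, with 35 counts, an exact 95% Poisson interval of 1.09 to 2.17 CPM. In KO replicate 2, the highest of that genotype, the interval was 7.06 to 9.28 CPM, and in WT replicate 2, the lowest of its own, it was 8.85 to 11.4 CPM. These 2 intervals overlap, and they cover counting error only. From the lowest to the highest library Colec10 differed 16.3-fold. Its SD of log2 CPM within the genotypes was 0.97, above that of 99.2% of the 4258 genes of like level (within 2-fold of its mean). Without WT replicate 3 the log2 fold change was -1.28, without KO replicate 3 it was -1.31 and without KO replicate 2 it was -2.29. Its unadjusted p stayed under 0.05 with each library left out in turn (0.00468 to 0.0384).

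Colec11 varied far less. It stood at 33.0, 34.7 and 32.3 CPM in KO, against 37.2, 34.2 and 44.2 CPM in WT replicates 1 to 3. KO replicate 2 lay above WT replicate 2, so the genotypes overlapped. Its log2 fold change was -0.21 (SE 0.11, 95% interval -0.46 to 0.04, edgeR unadjusted p = 0.0919). It was -0.10 without WT replicate 3 and -0.13 when libraries were scaled by size alone. The level of Colec10 per exon length was 5.59, 8.27 and 1.71% of that of Colec11 in KO, against 13.5, 10.4 and 20.3% in WT replicates 1 to 3. This share, in which the scaling of a library cancels, was 5.19 ± 3.30% in KO and 14.7 ± 5.07% in WT liver (SD, n = 3 each). The exact permutation test of that share (two-sided) had p = 0.1, the smallest that 3 against 3 libraries allow. Masp1, the serine protease that collectins activate, gave a log2 fold change of -0.14 (SE 0.10). Colec12, a membrane-bound scavenger receptor of the same family, stood at 70.2, 79.6 and 79.7 CPM in KO and 62.0, 67.7 and 57.8 CPM in WT replicates 1 to 3, so that it was higher in each KO library.

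**Figure D2:**
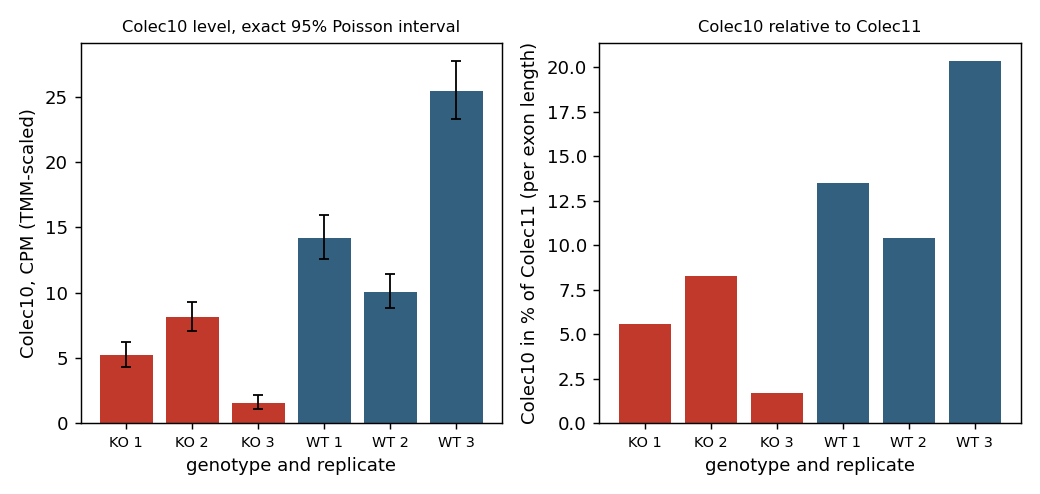
Left, Colec10 in CPM by genotype and replicate, with exact 95% Poisson intervals; right, Colec10 as a percentage of Colec11, both per exon length, and both axes start at 0. KO replicate 3 is lowest at 1.56 CPM and WT replicate 3 highest at 25.4 CPM.

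Markers of 2 neighbouring cell types shared the extremes of Colec10, with WT replicate 3 at the top and KO replicate 3 at the bottom. The 10 Kupffer cell markers, of which 10 had a lower estimate in KO, summed to 641 to 927 CPM in KO and 709 to 1648 CPM in WT liver. WT replicate 3 held the 1648 CPM, and WT replicates 1 and 2 held 944 and 709 CPM. Over all genes tested 51.0% had a lower estimate in KO, and 24.0% were highest in WT replicate 3. The 12 markers of sinusoidal endothelium, 11 of them lower, summed to 705 to 907 CPM in KO and 848 to 1232 CPM in WT liver. No marker of either list was at 0 in every library, and none passed the test. Clec4f, a lectin of resident Kupffer cells, gave a log2 fold change of -1.03 (SE 0.41), and Oit3, a marker of sinusoidal endothelium, gave -0.53 (SE 0.21) and -0.29 without WT replicate 3. Their part in the difference of Colec10 was not tested. Of 12 hepatocyte markers 1 was higher and 11 lower in KO liver, with a median of -0.10. Of 10 neutrophil markers 9 were tested and all 9 were lower, with a median of -0.69. The 10 summed to 46.5, 112 and 40.6 CPM in KO and to 81.0, 34.4 and 171 CPM in WT replicates 1 to 3.

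Hgf and Reln are secreted signals. Hgf (ENSMUSG00000028864, chromosome 5, 16553495 to 16620152, plus strand) encodes hepatocyte growth factor, the ligand of Met. Its level was 90.8, 93.6 and 91.6 CPM in KO, against 78.8, 108 and 78.0 CPM in WT replicates 1 to 3. The 3 KO libraries lay close together and inside the range of the WT libraries. On the log2 scale KO differed from WT liver by 0.06 (SE 0.13, 95% interval -0.25 to 0.37). It was -0.02 without WT replicate 1, -0.03 without WT replicate 3 and 0.23 without WT replicate 2. Gm43489, on the same strand with overlapping exons, had 35 to 87 counts a library beside 1592 to 2577 for Hgf. Met itself was at -0.05 (SE 0.09) and Hgfac and Hpn, proteases that activate the factor, were at -0.12 (SE 0.15) and -0.21 (SE 0.13).

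Reln (ENSMUSG00000042453, chromosome 5, 21884454 to 22344702, minus strand) encodes reelin, a large matrix glycoprotein known from neuronal migration and made by stellate cells in the liver. It had 294, 228 and 217 CPM in KO, against 294, 339 and 289 CPM in WT replicates 1 to 3. KO replicate 1 was level with WT replicate 1 to 3 digits and above WT replicate 3, so the genotypes overlapped, and the other KO libraries were below all WT libraries. The mean was 247 ± 41.8 CPM in KO and 308 ± 27.4 CPM in WT liver (SD, n = 3 each). The log2 fold change was -0.32 (SE 0.14, 95% interval -0.65 to 0.01, edgeR unadjusted p = 0.0566), and it was -0.47 without KO replicate 1 and -0.24 without KO replicate 3. Of the reelin receptors, Vldlr was at 0.12 (SE 0.36) and Lrp8 at 0.21 (SE 0.27), and their adaptor Dab1 was at 0.46 (SE 0.22).

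Ngfr (ENSMUSG00000000120, chromosome 11, 95568818 to 95587735, minus strand) encodes the p75 neurotrophin receptor, which binds neurotrophins and is carried by stellate cells, portal fibroblasts and Schwann cells. It stood at 17.4, 8.87 and 11.9 CPM in KO, against 12.03, 18.4 and 15.02 CPM in WT replicates 1 to 3. The genotypes overlapped throughout, with KO replicate 1 near the top and KO replicate 2 lowest. For Ngfr the log2 fold change was -0.25 (SE 0.25, 95% interval -0.84 to 0.33), and it was -0.55 without KO replicate 1 and -0.05 without KO replicate 2. Its within-genotype SD of 0.41 on the log2 scale was above that of 93.4% of genes of like level. Of 8 Schwann cell and nerve markers 4 were tested, 2 higher and 2 lower in KO, and the 8 summed to 46.9 to 57.1 CPM in KO and 35.7 to 45.8 CPM in WT liver. Most of that sum was Mbp and Ncam1, both also made by other cells. Mbp, myelin basic protein, stood at 20.4, 21.7 and 22.02 CPM in KO and at 16.2, 16.9 and 17.2 CPM in WT replicates 1 to 3, so that the genotypes did not overlap. Its log2 fold change was 0.35 (SE 0.09), and that of Ncam1, an adhesion molecule, was 0.49 (SE 0.21), or 0.75 without WT replicate 2. Ncam1 overlapped between the genotypes, and neither gene passed the test. Sox10, which defines Schwann cells, had 1 count in WT replicate 2 and 0 in the other libraries. The part of these markers in the values of Ngfr was not tested.

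The ligands and partners of Ngfr were measured too. Sort1, the co-receptor sortilin, stood at 76.6, 72.7 and 82.1 CPM in KO and at 54.7, 69.3 and 54.8 CPM in WT replicates 1 to 3. Every KO library exceeded every WT library, and the log2 fold change was 0.37 (SE 0.11, edgeR adjusted p = 0.850). Ntrk3, the receptor of neurotrophin 3, stood at 4.05, 9.52 and 9.003 CPM in KO and at 3.86, 3.78 and 3.73 CPM in WT replicates 1 to 3. Ntf3, its ligand, was lower in each KO library, at 1.74 ± 0.348 CPM in KO and 2.71 ± 0.620 CPM in WT liver (SD, n = 3 each). On the log2 scale Bdnf, another neurotrophin, differed by 0.54 (SE 0.27). Over all 29 receptors and partners of the 9 gene products, 28 were tested, 20 were higher and 8 lower in KO liver with a median of 0.15, and none passed the test. At an unadjusted p under 0.05 were Sort1, Ntrk3 and Colec12, higher in KO, and Ntf3, lower in KO, beside 5.19% of all genes tested.

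Hand2 (ENSMUSG00000038193, chromosome 8, 57320983 to 57324633, plus strand) encodes a basic helix-loop-helix factor of the stellate lineage. It was at 15.6, 14.9 and 15.9 CPM in KO, against 12.6, 18.6 and 15.9 CPM in WT replicates 1 to 3. The KO libraries fell inside the range of the WT libraries, and the log2 fold change was -0.02 (SE 0.15, 95% interval -0.37 to 0.32). It was 0.05 when libraries were scaled by size alone. Hand2os1, transcribed from the other strand with overlapping exons, held 440 to 806 counts a library beside 255 to 443 for Hand2. The strand setting of the counting is unknown here, so the pair may share reads.

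Lhx2 (ENSMUSG00000000247, chromosome 2, 38339281 to 38369733, plus strand) encodes a LIM homeodomain factor whose loss in mice is known to activate stellate cells and scar the liver. Its level was 6.54, 6.64 and 6.42 CPM in KO, against 7.28, 8.53 and 8.13 CPM in WT replicates 1 to 3. Every KO library lay below every WT library, and the KO libraries lay close together. The log2 fold change was -0.29 (SE 0.13, 95% interval -0.59 to 0.01, edgeR unadjusted p = 0.0596). The SD of log2 CPM within the genotypes was 0.084, and 5.22% of the 3680 genes of like level had a smaller one. It rested on 144 to 203 counts a library.

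Cygb (ENSMUSG00000020810, chromosome 11, 116645595 to 116654313, minus strand) encodes cytoglobin, an oxygen-binding globin found in the liver in stellate cells. It stood at 69.5, 68.5 and 71.4 CPM in KO, against 51.5, 63.2 and 53.9 CPM in WT replicates 1 to 3. All KO libraries were above all WT libraries, with WT replicate 2 nearest to them. The mean was 69.8 ± 1.49 CPM in KO and 56.2 ± 6.19 CPM in WT liver (SD, n = 3 each). For Cygb the log2 fold change was 0.31 (SE 0.10, 95% interval 0.09 to 0.54), with an edgeR unadjusted p of 0.0122 and an adjusted p of 0.850. It stayed between 0.25 and 0.40 with any library left out. The edgeR unadjusted p then stayed under 0.05 (0.00248 to 0.0491), and the adjusted p was 0.297 or more. Prcd, which overlaps its exons on the other strand, had 1 to 20 counts a library beside 1040 to 1807 for Cygb.

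Markers of other cells were set beside Cygb, and the share of all genes tested with a negative estimate was 51.0%. Of 16 markers of portal fibroblasts and mesothelium, 14 were tested, with 12 higher and 2 lower and a median of 0.39. The 16 summed to 517 to 575 CPM in KO and 358 to 496 CPM in WT liver. Gas6, a ligand of the Axl receptor, gave a log2 fold change of 0.35 (SE 0.10), and Dpt, the matrix protein dermatopontin, was at 0.54 (SE 0.15). Of the sum, Gas6 alone held 239, 263 and 256 CPM in KO and 185, 208 and 200 CPM in WT replicates 1 to 3. Of 10 bile duct markers, 9 were higher and 1 lower, with a median of 0.38. An unadjusted p under 0.05 by edgeR was reached by 5 portal and 5 bile duct markers, all higher in KO. Over all genes tested 3.08% were higher at that level. The 10 bile duct markers summed to 1273 to 1624 CPM in KO and 921 to 1245 CPM in WT liver. Most of that sum was Spp1, also listed for activated stellate cells. Spp1 stood at 803, 1166 and 970 CPM in KO and at 613, 805 and 834 CPM in WT replicates 1 to 3. Krt19 was on both the bile duct and the portal list. Of the 7 smooth muscle markers tested, 2 were higher and 5 lower, with a median of -0.10. None of these markers was at 0 in every library and none passed the test. Their part in the difference of Cygb was not tested.

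**Figure D3:**
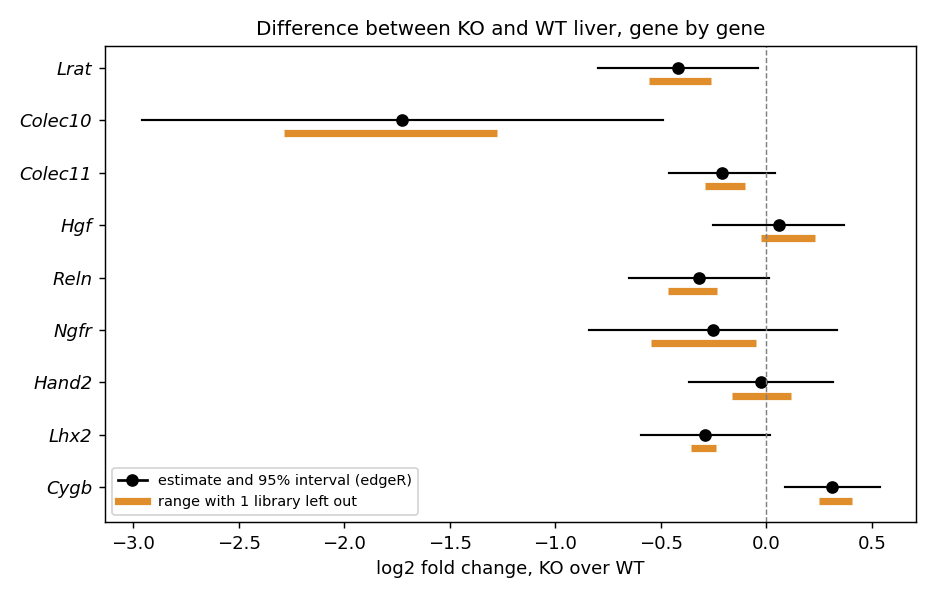
log2 fold change of KO over WT for each gene (point) with its 95% interval from edgeR (line) and, in orange, the range of the estimates when each of the 6 libraries was left out in turn. Colec10 has the widest interval, -2.96 to -0.49, and the intervals of Lrat, Colec10 and Cygb leave out 0 before adjustment over all genes.

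Compared per length of exon, Cygb was the most abundant of the 9 in KO liver, at 30.0 ± 0.637 CPM per kilobase in KO and 24.1 ± 2.66 in WT (SD, n = 3 each). Colec11 came next in KO, with 20.6 ± 0.742 in KO and 23.8 ± 3.18 in WT, and in WT liver Cygb and Colec11 did not differ beyond their spread. Hgf (12.8 ± 0.202 in KO and 12.3 ± 2.40 in WT), Reln (10.4 ± 1.76 in KO and 13.0 ± 1.15 in WT) and Lrat (7.48 ± 1.16 in KO and 10.0 ± 1.99 in WT) formed the middle. In WT liver Hgf and Reln, and Hgf and Lrat, lay within their spread. Hand2 (6.57 ± 0.224 in KO and 6.68 ± 1.27 in WT) and Ngfr (3.70 ± 1.26 in KO and 4.40 ± 0.930 in WT) followed. In KO liver Lrat and Hand2 lay within their spread. Colec10 (1.08 ± 0.716 in KO and 3.61 ± 1.73 in WT) and Lhx2 (1.49 ± 0.0248 in KO and 1.82 ± 0.145 in WT) were the least abundant in KO, while in WT liver Colec10 and Ngfr lay within their spread. These levels divide by the summed length of all annotated exons, which understates genes with long, little used exons.

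The 9 genes had their highest levels in different libraries. Hgf, Reln, Ngfr, Hand2 and Lhx2 were highest in WT replicate 2, where 13.0% of all genes tested had their highest level. Lrat, Colec10 and Colec11 were highest in WT replicate 3, as were 24.0% of all genes, and Cygb was highest in KO replicate 3, as were 19.4%. To compare patterns, each gene's log2 CPM was centred on its mean over the 6 libraries, and the root mean square distance between genes was taken. The closest members were Hgf and Hand2, at a distance of 0.12, then Colec11 and Lhx2 at 0.14. This distance follows the size of the deviations as well as their shape: a gene with no variation at all would stand at 0.16 from Hgf, 0.16 from Hand2, 0.15 from Colec11 and 0.16 from Lhx2, so that 0.14 is hardly closer. Colec10 stood at 0.99 or more from every other member, nearest to Lrat, and would stand at 1.24 from such a flat gene.

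**Figure D4:**
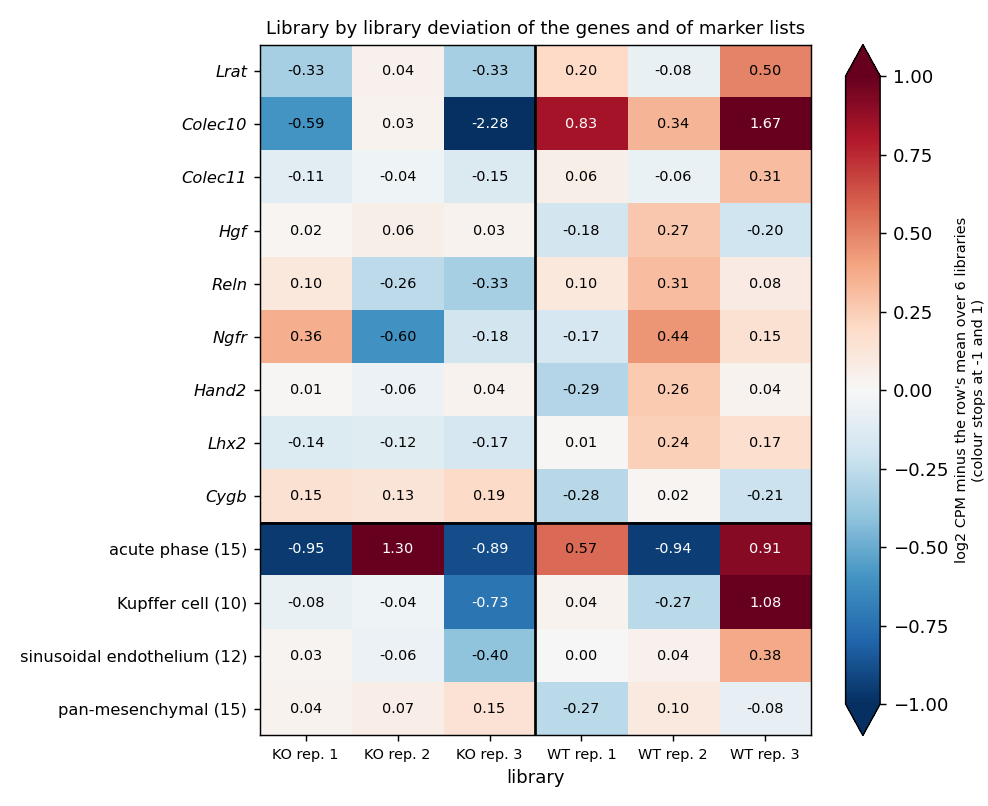
Deviation of log2 CPM from the mean of each row over the 6 libraries, with KO libraries left of WT libraries; upper rows are the 9 genes, lower rows the mean of 4 marker lists with the number of genes in brackets, and colours stop at -1 and 1 while the printed values do not. Colec10 runs from -2.28 in KO replicate 3 to 1.67 in WT replicate 3, and the Kupffer cell list from -0.73 to 1.08 in the same libraries.

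Among 13086 tested genes with a mean of at least 1 CPM and an established symbol, those at the smallest distance from Lrat over the 6 libraries were Aifm2, Slc16a6 and Paics, at distances of 0.064, 0.065 and 0.066. Aifm2 stood at 21.9, 25.8 and 19.97 CPM in KO and at 29.6, 24.2 and 33.5 CPM in WT replicates 1 to 3, so that WT replicates 3 and 1 and KO replicate 2 were its 3 highest, as they were for Lrat. The exact order of the 6 libraries by Lrat was found in 55 genes, 0.322% of those tested. Ephb2 was 1 of the 55, and the Lrat levels of KO replicates 3 and 1, the lowest in that order, were 36.5 and 36.4 CPM. The gene closest to Colec10 was Bmper, a secreted modulator of BMP signalling, at 0.42. It stood at 2.31, 3.87 and 1.25 CPM in KO and at 4.56, 3.57 and 13.0 CPM in WT replicates 1 to 3. The nearest to Colec11 was Tmem238 at 0.013, to Lhx2 Igsf11 at 0.035 and to Cygb Adarb1 at 0.036. Hgf was nearest to Tmem69 (0.036), Reln to Mrps33 (0.063), Ngfr to Gpt2 (0.10) and Hand2 to Nat2 (0.030). These are distances over 6 libraries and carry no test.

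Other known genes of stellate cells were set beside the 9. Of 24 such genes, all tested, 8 were higher and 16 lower in KO liver with a median of -0.14, and none passed the test. At an unadjusted p under 0.05 were 2 higher and 4 lower, where 3.08% of all genes tested were higher and 2.10% lower. Gdf2, the gene of BMP9, stood at 35.9, 36.9 and 26.6 CPM in KO, against 41.2, 42.3 and 40.8 CPM in WT replicates 1 to 3, so that the genotypes did not overlap. Its log2 fold change was -0.32 (SE 0.13, edgeR adjusted p = 0.850), and -0.19 without KO replicate 3. Hhip, which binds and restrains hedgehog ligands, was lower in each KO library at -1.57 (SE 0.61), on 1 to 21 counts a library. Tmem56 was at -0.37 (SE 0.15) and overlapped. Adamtsl2, a secreted protein of the matrix, was at 0.37 (SE 0.15) and overlapped as well.

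Des and Pdgfrb, which mark stellate cells at rest and after activation, were set beside Lrat. Des, desmin, was nearly level, at 14.4 to 14.98 CPM in KO and 14.5 to 15.3 CPM in WT liver, a log2 fold change of -0.01 (SE 0.10). Pdgfrb, the gene whose promoter drives the Cre, was at 68.0 to 84.5 CPM in KO and 49.6 to 95.3 CPM in WT liver (0.14, SE 0.24). The ratio of Lrat to Des was 2.53, 3.15 and 2.51 in KO, against 3.64, 2.84 and 4.44 in WT replicates 1 to 3, and overlapped between the genotypes. Smooth muscle also makes desmin, and 7 of 10 smooth muscle markers were tested, of which 2 were higher and 5 lower in KO liver. Those 10 summed to 85.7 to 93.4 CPM in KO and 88.7 to 94.0 CPM in WT liver.

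Genes of the activated state and of mesenchyme in general were counted in the same way. Of 20 genes of activated stellate cells, 19 were tested, with 12 higher and 7 lower in KO liver, a median of 0.06 and none past the test. Pdgfra, a receptor of fibroblasts, was at 0.34 (SE 0.14), or 0.20 without WT replicate 1, and Postn, periostin, at -0.53 (SE 0.18). Col1a1 stood at 786, 622 and 939 CPM in KO and at 549, 831 and 615 CPM in WT replicates 1 to 3, which overlapped. Acta2, smooth muscle actin, was at -0.12 (SE 0.19). Of 15 pan-mesenchymal genes, 13 were higher and 2 lower with a median of 0.14, and none passed; Mxra8, a membrane protein of fibroblasts, was at 0.39 (SE 0.15). These lists share Colec12, Pdgfrb, Spp1, Tagln, Cnn1 and Thy1 with lists above. Their summed levels were 2536 to 2719 CPM in KO and 2109 to 2722 CPM in WT liver for the pan-mesenchymal genes, lowest in WT replicate 1.

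**Figure D5:**
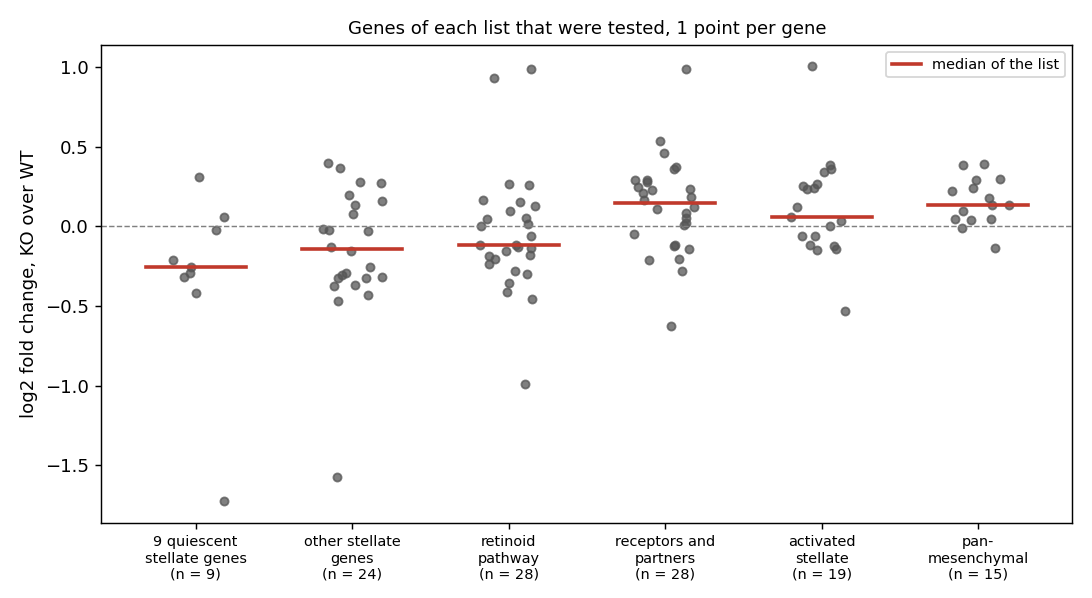
log2 fold change of KO over WT for every tested gene of 6 lists, 1 point per gene, with the median of each list as a red bar. Medians of these 6 lists run from -0.25 for the 9 quiescent stellate genes to 0.15 for their receptors and partners. No gene shown passed the adjusted test. Some lists not drawn lay beyond both ends. Their medians were -0.73 for Kupffer cell, -0.69 for neutrophil and -0.28 for sinusoidal endothelium markers. Bile duct markers had a median of 0.38, and markers of portal fibroblasts and mesothelium 0.39.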

How the data were processed

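Per the labels' protocols, total RNA of liver was enriched for polyadenylated transcripts and made into directional libraries for an Illumina NovaSeq. The authors deposited raw read counts per Ensembl gene. Per the submitters' processing notes the tools were featureCounts 1.6.3, STAR 2.7.6a and DESeq2 1.30.0, with mm10 and GRCm38 as builds, and no roles are stated. The sources used here name neither annotation release nor strand setting.

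Symbols, coordinates and exon lengths came from GENCODE M21 (GRCm38), which held 52135 of 55416 IDs, and promoter sequences from RefSeq (GRCm38.p6). The main test was edgeR 4.0.16 (glmQLFit, glmQLFTest; R 4.3.3) on all 6 libraries, with genotype alone in the model, TMM scaling and low counts removed by filterByExpr (minimum count 10, minimum total 15). P-values were adjusted over 17083 genes by Benjamini-Hochberg, with a threshold of 0.05. The prior count of logged levels was 2. SE is the log2 fold change over the root of F. Alternatives were limma-voom (limma 3.58.1), DESeq2 1.42.0, other scalings and filters, a robust fit, the replicate number as a block, an acute phase covariate, removal of the 20 most abundant genes, and each library left out in turn. The procedure was also run on simulated counts, but how often it recovers differences as small as most of those here is not given. The 9 genes and all lists were chosen with earlier results of these data known. Named were the 9 genes, per list the 2 genes of smallest p (4 for the retinoid, other stellate and partner lists), and the nearest genes by pattern. Some named by this rule appear in no sentence, and Rbp4, Stra6l, Rarb, Cyp26a1, Cyp26b1, Crabp2, Met, Hgfac, Hpn, Vldlr, Lrp8, Dab1, Bdnf, Masp1, Sox10, Des, Pdgfrb, Col1a1 and Acta2 were added for their roles after values were seen. No library pair agreed within sampling noise (chi-square per degree of freedom 11.3 to 76.3).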

Additional observations from a re-analysis of the deposited data

How the results depend on the processing

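Of 153 values of the 9 genes under 17 alternatives, 147 kept their direction and none passed the threshold. The log2 fold change of Hgf ran from -0.026 to 0.229 with 1 library left out, negative without WT replicate 1 (-0.024) or WT replicate 3 (-0.026). That of Hand2 turned to 0.049 by library size alone and 0.0088 by upper-quartile factors, and ran from -0.165 to 0.115 with 1 library left out, positive without KO replicate 2 (0.00092) or WT replicate 2 (0.115). Camp, a neutrophil gene, ran from -1.67 to 0.113 and Apcs, an acute phase gene, from -0.972 to 0.121, both positive without WT replicate 3 alone. Scaling by library size put the overall median at 0.075. Over all genes DESeq2 called 8 and edgeR without a count filter called 3. With 1 library left out edgeR called 0 to 2 genes, and 2 only without WT replicate 3. Of the 9 genes, 3 had an unadjusted p under 0.05 in the main test and 5 without WT replicate 2 (Lrat, Colec10, Colec11, Hgf and Cygb), the range over libraries left out being 2 to 5. The cause of these shifts was not tested. The replicate number as a block left Lrat at -0.41 (unadjusted p = 0.0796) and Colec10 and Cygb under 0.05. Same-numbered libraries did not deviate together (correlations -0.036, -0.52 and -0.36), so the numbers were not taken as pairs. Over all genes 886 had an unadjusted p under 0.05, against 537 with the block, 1390 without a count filter, and 452 (without KO replicate 3) to 1858 (without WT replicate 2) with 1 library left out. With 3 libraries a genotype, SEs on the log2 scale had a median of 0.159, which limits what could be seen.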
